A study of Mus musculus with 18 samples.

Results

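The collagen genes of the mouse were followed in 18 RNA-seq libraries that set cells carrying an sgNAT10 guide against wild-type (WT) cells. Genes were taken by symbol, as every name made of Col, a number, the letter a and a number. Of 44 such names, 42 were present in all 3 deposited tables, among 35310 genes in all. The 21 of these 42 that reached 1 FPKM in 3 libraries of a table are reported here. FPKM counts fragments relative to transcript length and to library size, so it can be compared between genes of different length. The tables hold 3 comparisons: sgNAT10 against WT MCA205 cells in culture, sgNAT10 against WT TC1 cells in culture, and sgNAT10 against WT TC1 tumours taken on day 8 after the cells had been placed under the skin. Each of the 6 groups had 3 libraries. MCA205 is a methylcholanthrene-induced fibrosarcoma line. TC1 is usually described as lung epithelium transformed with papillomavirus oncogenes, whereas the labels name fibrosarcoma for it as well. The guide targets Nat10, whose product acetylates cytidines in RNA. The labels do not say whether the sgNAT10 cells are a clone or a mixed population, and the strain and age of the host mice are not given in the sources used here. Differences that arose between the cell populations apart from the guide cannot be told apart from its effect. No label ties the libraries of a group to separate cultures or animals, so the p-values rest on differences among these libraries, and these may be no more than technical.

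Collagens are secreted proteins whose chains wind around each other into a helix, so a cell has to make matching chains for the molecule to form. Fibrillar collagens build the load-bearing fibres of connective tissue, type IV collagen makes the sheet beneath epithelia and vessels, and type VI collagen makes beaded filaments around cells. Fibril-associated collagens (FACIT), the anchoring-fibril collagen and the multiplexins link these structures or cap them. In solid tumours host fibroblasts are known as the main makers of fibrillar collagen, while type IV chains also come from vessels.

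Libraries held between 51661298 and 78501790 estimated counts. Nat10 itself was not called in any comparison. It lay between 13.2 and 13.6 FPKM in sgNAT10 MCA205 cells, against 12.5 to 14.2 FPKM in WT MCA205 cells, between 11.7 and 14.2 FPKM in sgNAT10 TC1 cells, against 13.9 to 15.9 FPKM in WT TC1 cells, and between 12.3 and 16.3 FPKM in sgNAT10 tumours, against 14.8 to 16.2 FPKM in WT tumours. An edit need not lower its transcript, so these levels gave no check of the genotype. Both cell lines expressed mesenchymal markers such as Vim. In TC1 cells 5 of 6 lung epithelial markers were at or near 0 in every library (Nkx2-1, Sftpc, Sftpb, Sftpa1 and Scgb1a1), while Abca3 lay between 6.00 and 7.30 FPKM. The sum of 6 general epithelial markers was 51.5 to 88.4 FPKM in sgNAT10 and 35.8 to 168 FPKM in WT TC1 cells. In MCA205 cells that sum was 0.593 to 41.3 FPKM in sgNAT10 and 2.94 to 103 FPKM in WT. Some libraries stood apart within their group. The summed FPKM of 10 liver markers was 30.2, 0.722 and 35.2 in sgNAT10 MCA205 cells and 0.659, 78.1 and 33.3 in WT MCA205 cells, and WT library 1 held Scgb1a1 at 43.0 FPKM, against at most 0.25 FPKM in the other 5. All TC1 cell libraries held liver markers, between 831 and 1130 FPKM in sgNAT10 and between 616 and 1180 FPKM in WT. In the tumours the liver sum was 469, 524 and 494 FPKM with sgNAT10 and 1.39, 48.6 and 195 FPKM in WT.

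RefSeq promoter windows (300 bases, 250 before to 50 after a start site, build GRCm38.p6) were available for 16 of the 21 genes. The windows below belong to Col1a2 and Col3a1, fibrillar genes that fell in both sgNAT10 cell lines, and to Col4a1 and Col4a2, which lie head to head and were called in the same direction within each cell line. Their places are chr6:4505368-4505667 on the plus strand, chr1:45311288-45311587 on the plus strand, chr8:11312777-11313076 on the minus strand and chr8:11312555-11312854 on the plus strand. Each is printed 5′ to 3′ on its own strand, with capitals for 3 motifs searched on both strands. The CCAAT box was searched as CCAAT. The GC box was searched as GGGCGG. The TATA box was searched as TATAAA. A match on the other strand is printed as its reverse complement.
Col1a2: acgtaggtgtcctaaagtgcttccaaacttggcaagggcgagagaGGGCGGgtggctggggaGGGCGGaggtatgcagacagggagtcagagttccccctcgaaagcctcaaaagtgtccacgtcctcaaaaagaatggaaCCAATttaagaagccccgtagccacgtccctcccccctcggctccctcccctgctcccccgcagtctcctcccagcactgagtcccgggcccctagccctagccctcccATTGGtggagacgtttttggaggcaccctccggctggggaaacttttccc
Col3a1: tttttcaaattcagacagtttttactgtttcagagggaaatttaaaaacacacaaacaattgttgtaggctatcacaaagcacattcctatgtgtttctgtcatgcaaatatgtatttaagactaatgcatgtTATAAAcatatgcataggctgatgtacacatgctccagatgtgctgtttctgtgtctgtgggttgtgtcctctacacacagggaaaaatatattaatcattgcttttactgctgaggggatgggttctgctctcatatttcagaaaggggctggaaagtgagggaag
Col4a1: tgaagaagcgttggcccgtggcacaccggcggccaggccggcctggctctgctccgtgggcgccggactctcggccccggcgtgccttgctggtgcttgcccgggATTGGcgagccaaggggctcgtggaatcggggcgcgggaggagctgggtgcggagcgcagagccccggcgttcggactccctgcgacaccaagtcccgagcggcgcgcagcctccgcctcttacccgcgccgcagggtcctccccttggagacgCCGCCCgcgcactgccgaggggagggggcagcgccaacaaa
Col4a2: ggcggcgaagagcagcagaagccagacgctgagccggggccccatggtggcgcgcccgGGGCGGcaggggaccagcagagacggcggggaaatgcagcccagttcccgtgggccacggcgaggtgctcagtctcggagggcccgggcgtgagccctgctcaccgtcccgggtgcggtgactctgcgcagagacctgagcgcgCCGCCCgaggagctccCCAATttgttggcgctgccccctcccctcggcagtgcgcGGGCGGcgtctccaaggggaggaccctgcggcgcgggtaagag
The Col1a2 window held 2 matches of the CCAAT box and 2 of the GC box, and 13 CpG sites. The Col3a1 window held 1 match of the TATA box and 0 CpG sites. The type IV windows held 37 CpG sites for Col4a1 and 33 for Col4a2, and they share 78 bases, so that 1 GGGCGG match of each is the same letters read from opposite strands. No base was shared by matches of different motifs in these 4 windows. Of 32851 RefSeq windows of the same length, 37.4% held the CCAAT box, 35.7% the GC box and 13.6% the TATA box on either strand, and the median number of CpG sites was 7, against 12.5 over the 18 windows of the collagen genes. These are descriptions of letters, and no methylation or factor binding was measured here.

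The collagen family as a whole took a smaller share of transcripts in sgNAT10 TC1 cells than in WT TC1 cells. Summed over the 42 genes, collagen reached 201, 243 and 239 FPKM in sgNAT10 TC1 cells and 532, 610 and 557 FPKM in WT TC1 cells, and the groups did not overlap. In MCA205 cells the sums lay closer, at 305, 297 and 311 FPKM with sgNAT10 and 319, 333 and 329 FPKM in WT. In the tumours they were 1590, 1210 and 1060 FPKM with sgNAT10 and 596, 766 and 1480 FPKM in WT, where WT tumour 3 lay above 2 of the sgNAT10 tumours. The make-up differed between genotypes in both cell lines. Fibrillar genes made up 19.0% to 22.0% of the collagen sum in sgNAT10 MCA205 cells and 36.7% to 38.2% in WT MCA205 cells. They made up 13.0% to 15.0% in sgNAT10 TC1 cells and 31.5% to 35.5% in WT TC1 cells. The type IV genes took the larger share in sgNAT10 cells, with 34.1% to 35.1% against 23.3% to 24.6% in MCA205 cells and 49.7% to 57.3% against 39.6% to 42.2% in TC1 cells. In TC1 cells the type IV sum itself was lower, at 115 to 121 FPKM with sgNAT10 and 210 to 243 FPKM in WT, and the fibrillar sum was 26.2 to 36.5 FPKM with sgNAT10 and 174 to 217 FPKM in WT. In the tumours the fibrillar share was 54.8% to 61.4% with sgNAT10 and 55.5% to 61.4% in WT, and the groups overlapped. The tables may have been normalised separately, so levels were not tested between them.

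**Figure D1:**
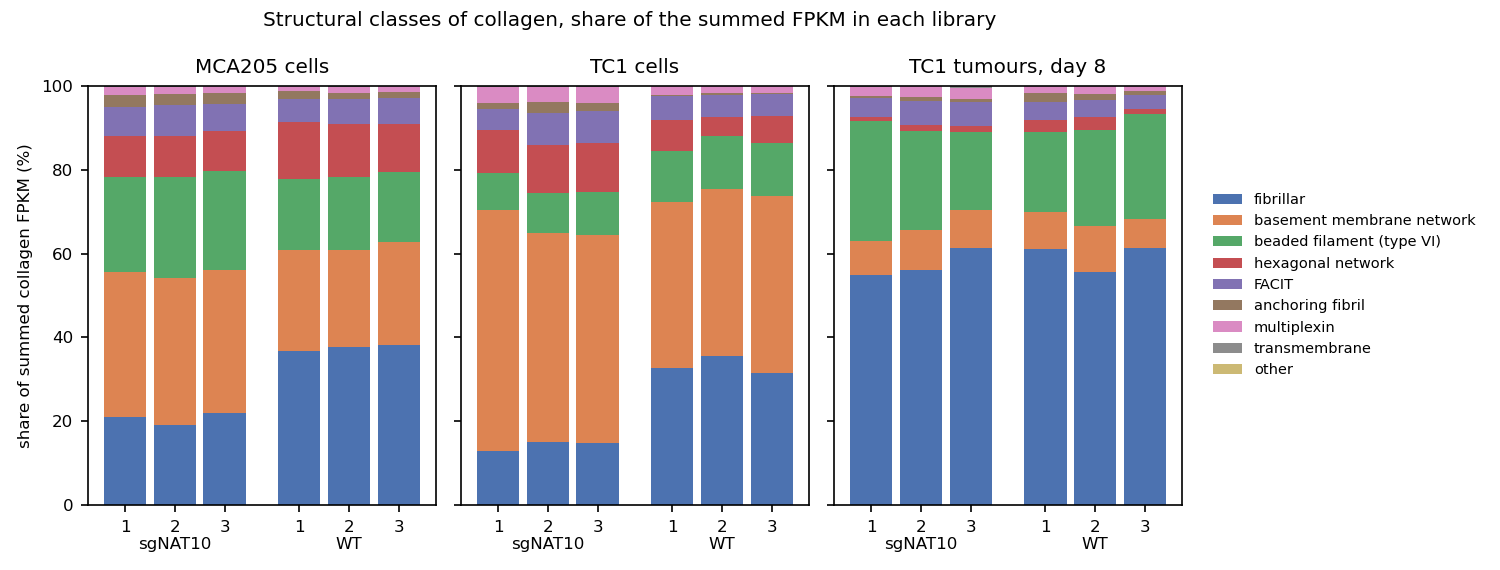
Share of the summed collagen FPKM (%) taken by each structural class in every library, with sgNAT10 libraries left of WT libraries in each panel. The fibrillar share lay at 19.0% to 22.0% in sgNAT10 and 36.7% to 38.2% in WT MCA205 cells, and at 13.0% to 15.0% in sgNAT10 and 31.5% to 35.5% in WT TC1 cells.

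In MCA205 cells 4 of 6 fibrillar collagen genes were lower and all 3 type VI genes higher with sgNAT10. Of the 18 collagen genes that reached 1 FPKM in 3 libraries of this table, 9 rose, 6 fell and 3 were not called by edgeR (adjusted p under 0.05). Of all 18101 genes tested 40.6% were called, 21.2% higher and 19.4% lower, and of genes with at least 1 FPKM in 3 libraries 51.6% were called, 26.4% higher and 25.1% lower. Col9a3 and Col12a1 reached 1 FPKM in the sgNAT10 libraries alone and so had to be higher there. Among the other 16, 7 rose and 6 fell. The groups did not overlap in 15 of the 18, against 52.6% of all genes tested, a share that includes genes under 1 FPKM. Col9a3 and Col12a1 are among the 15 and could not overlap. The median log2 change of those 16 was -0.03, as it was over all genes tested.

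Among the fibrillar genes, 4 of 6 fell and none of the 6 rose. With dispersion over all 18 libraries the Col3a1 and Col5a1 calls were lost (edgeR adjusted p = 0.34 and 0.368). Col5a2 (chromosome 1, 45374321 to 45503282, mm10, minus strand) encodes the second chain of type V collagen, which controls the width of collagen fibrils. It stood at 2.71, 2.56 and 3.08 FPKM in sgNAT10 MCA205 cells and at 18.9, 18.2 and 17.7 FPKM in WT MCA205 cells, a log2 change of -2.72 ± 0.07 (SE; edgeR adjusted p = 1e-06). Its partner chain gene Col5a1 was nearly even, with 13.9, 13.7 and 14.5 FPKM in sgNAT10 and 16.5, 16.4 and 17 FPKM in WT, a log2 change of -0.26 ± 0.03 (adjusted p = 0.00107). Col5a1 stood at 4.71 to 5.34 times the FPKM of Col5a2 in sgNAT10 cells and at 0.873 to 0.962 times in WT cells. Col5a3, the remaining chain gene of type V, had 8.01, 7.94 and 8.46 FPKM in sgNAT10 and 8.24, 7.52 and 7.53 FPKM in WT and was not called (adjusted p = 0.361). Col3a1 (chromosome 1, 45311538 to 45349706, plus strand), which encodes the type III collagen of soft tissue and lies 24.6 kb from Col5a2, fell by 0.50 on the log2 scale (SE 0.08, adjusted p = 0.00275). Its levels were 33.7, 30.4 and 35.9 FPKM in sgNAT10 and 43.4, 46.8 and 51.6 FPKM in WT.

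The pair of type I genes behaved unlike each other. Col1a2 (chromosome 6, 4504814 to 4541544, plus strand) had 2.21, 0.131 and 2.45 FPKM in sgNAT10 MCA205 cells and 28.3, 30.3 and 27.7 FPKM in WT MCA205 cells, a log2 change of -4.42 ± 0.74 (edgeR adjusted p = 0.00304). Every WT library lay above every sgNAT10 library, and sgNAT10 library 2 lay far below the other two. Col1a1 (chromosome 11, 94936224 to 94953042, plus strand), the gene of the main type I chain, had 2.15, 0.101 and 2.36 FPKM in sgNAT10 and 0.193, 3.97 and 2.45 FPKM in WT and was not called (adjusted p = 0.783). Within the groups Col1a1 ran with the intestine markers, whose sums were 54.5, 1.62 and 63.5 FPKM in sgNAT10 and 5.51, 147 and 68.6 FPKM in WT, and with the liver sums above. Col1a2 ran in the same order in the sgNAT10 libraries but not in the WT libraries. The part of these markers in the Col1a1 and Col1a2 values was not tested. WT library 1 and sgNAT10 library 2 held the lowest intestine and liver sums of their groups, so leaving them out kept the libraries with more of these markers. Without WT library 1 and sgNAT10 library 2, a choice made after seeing the data, the log2 change was -3.83 for Col1a2 (adjusted p = 4.82e-06) and -0.49 for Col1a1 (adjusted p = 0.139), and 8 collagen genes rose and 6 fell.

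All 3 type VI genes rose in sgNAT10 MCA205 cells. Col6a3 (chromosome 1, 90765923 to 90843971, minus strand), which encodes the longest chain of the type VI molecule, reached 5.55, 5.97 and 6.25 FPKM in sgNAT10 cells and 0.849, 1.21 and 0.881 FPKM in WT cells, a log2 change of 2.63 ± 0.11 (adjusted p = 8.65e-06). Its partner chain genes differed much less. Col6a2 had 22.4, 22.9 and 23.7 FPKM in sgNAT10 and 16.5, 18 and 17.2 FPKM in WT (log2 change 0.42 ± 0.04, adjusted p = 0.000144). Col6a1 had 40.8, 42.9 and 42.6 FPKM in sgNAT10 and 36.5, 38.3 and 37.0 FPKM in WT (log2 change 0.18 ± 0.03, adjusted p = 0.00188). With dispersion over all 18 libraries the Col6a1 and Col6a2 calls were lost (edgeR adjusted p = 0.747 and 0.409). The 3 chains are thought to assemble in equal parts, whereas Col6a3 transcripts were the least abundant in both genotypes. Col6a3 stood at 0.136 to 0.146 times the FPKM of Col6a1 in sgNAT10 cells and at 0.0233 to 0.0316 times in WT cells.

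Of the type IV genes 2 rose and 1 fell. Col4a2 (chromosome 8, 11312805 to 11449287, plus strand), a chain of the general basement membrane network, had 53.1, 54.0 and 54.2 FPKM in sgNAT10 MCA205 cells and 31.5, 31.6 and 32.7 FPKM in WT MCA205 cells, a log2 change of 0.76 ± 0.03 (adjusted p = 7.45e-06). Col4a1 (chromosome 8, 11198423 to 11312826, minus strand), its partner in the same molecule, had 42.6, 41.0 and 42.4 FPKM in sgNAT10 and 32.0, 32.3 and 32.7 FPKM in WT (log2 change 0.39 ± 0.03, adjusted p = 0.000151). Both rose, but not by the same amount. The ratio of Col4a1 to Col4a2 was 0.760 to 0.803 in sgNAT10 and 1.0 to 1.02 in WT, with no overlap. These genes overlap by 22 bases at their starts, and no strand setting of the counting is given in the sources used here, so reads there could be assigned to either. Col4a5, on the X chromosome, encodes a chain of the network found in kidney and other specialised membranes. It fell, with 9.74, 9.22 and 9.37 FPKM in sgNAT10 and 13.2, 13.6 and 15.4 FPKM in WT (log2 change -0.50 ± 0.05, adjusted p = 0.00031), while its neighbour and partner Col4a6 stayed at or under 0.0114 FPKM in all 6 libraries. With dispersion over all 18 libraries the Col4a1 and Col4a5 calls were lost (edgeR adjusted p = 0.0755 and 0.0904).

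Among the other classes in MCA205 cells, Col7a1, the anchoring fibril gene that ties skin basement membrane to the tissue beneath, rose. It had 8.43, 7.79 and 8.11 FPKM in sgNAT10 cells and 5.66, 5.09 and 4.74 FPKM in WT cells (log2 change 0.64 ± 0.04, adjusted p = 3.08e-05). Col8a1, a short-chain network collagen of vessels and cornea, fell, with 29.4, 28.9 and 30.4 FPKM in sgNAT10 and 43.8, 42 and 38.0 FPKM in WT (log2 change -0.48 ± 0.05, adjusted p = 0.00058). Its partner Col8a2 did not exceed 0.165 FPKM in any of these 6 libraries. Of the fibril-associated genes, Col9a3, a type IX chain gene of cartilage, averaged 2.79 ± 1.01 FPKM in sgNAT10 and 0.443 ± 0.186 FPKM in WT (SD, n = 3 each), with an edgeR adjusted p of 0.00214. Its coding model had 0.968, 0.427 and 1.03 FPKM in sgNAT10 and 0.180, 0.337 and 0.375 FPKM in WT. The rest of its FPKM came from models annotated as keeping an intron. Col12a1 averaged 1.19 ± 0.112 FPKM in sgNAT10 and 0.591 ± 0.0966 FPKM in WT (adjusted p = 0.00501). Col16a1 was not called (log2 change -0.12 ± 0.04, adjusted p = 0.064), although DESeq2 called it at -0.13. Col18a1, whose C-terminal fragment is endostatin, rose by a log2 change of 0.34 ± 0.11 (adjusted p = 0.04), and this call was lost without any single library other than WT library 3, at log2 changes down to 0.24.

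**Figure D2:**
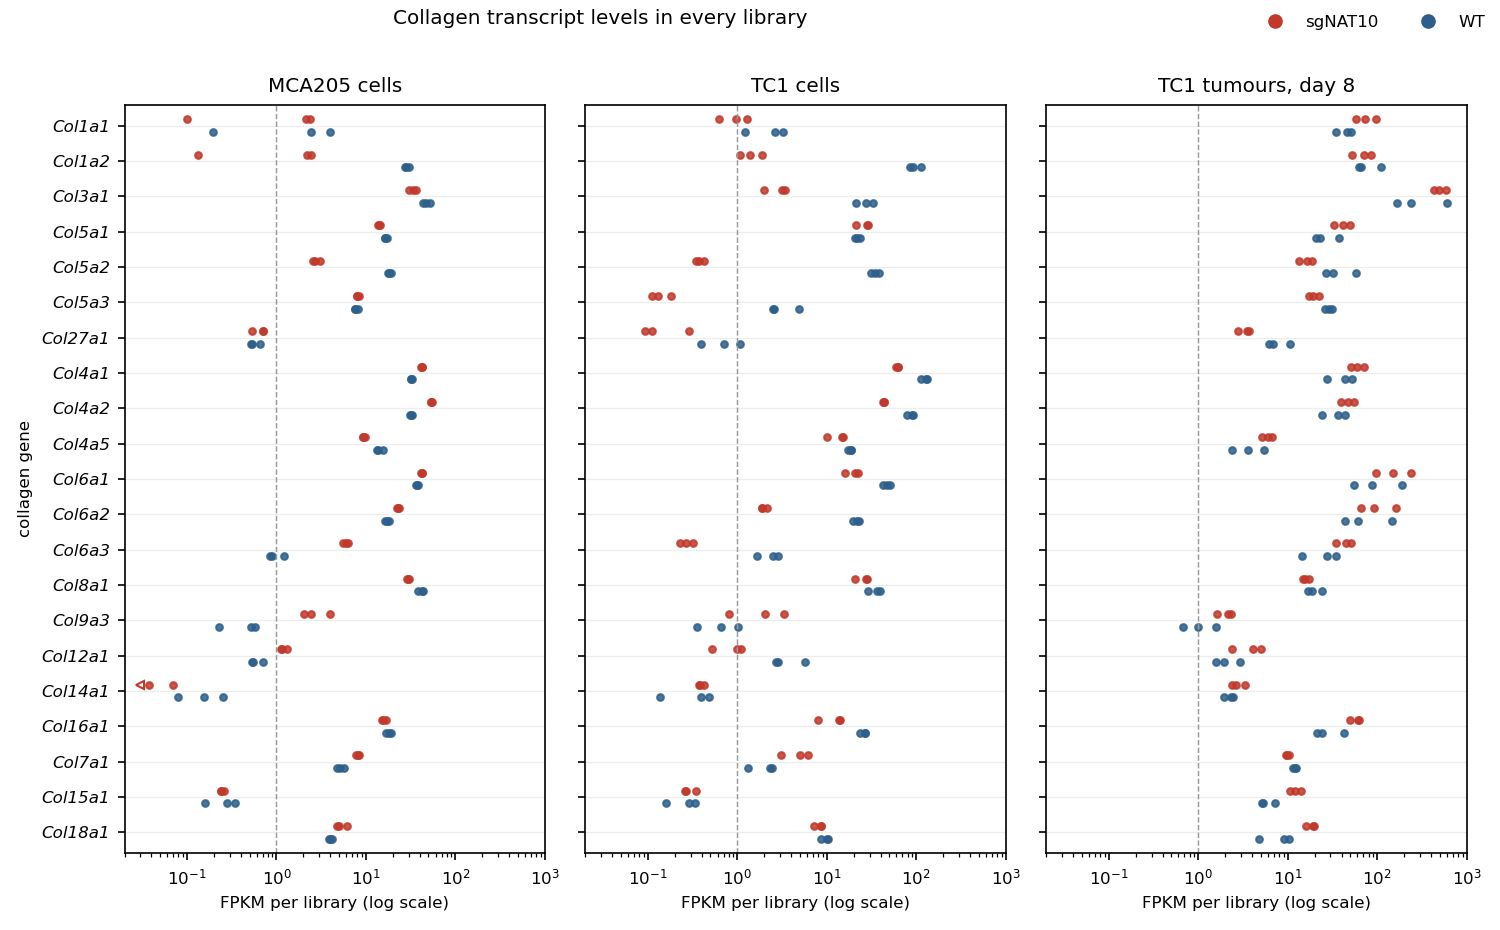
FPKM of each of the 21 collagen genes in every library on a log scale, with sgNAT10 points above WT points in each row and a dashed line at 1 FPKM. The open triangle at the left edge of the MCA205 panel is Col14a1 in sgNAT10 library 2, which is listed at 0. Col5a2 lay at 0.348 to 0.423 FPKM in sgNAT10 and at 31.3 to 38.1 FPKM in WT TC1 cells.

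In TC1 cells nearly every collagen gene at or above the threshold was lower with sgNAT10. Of the 18 genes that reached 1 FPKM in 3 libraries of this table, 15 fell, 1 rose and 2 were not called by edgeR, where 37.9% of all 18823 genes tested were called, 22.0% lower and 15.9% higher. Among genes with at least 1 FPKM in 3 libraries 47.0% were called, 26.9% lower and 20.0% higher. Col5a2, Col5a3 and Col6a3 reached 1 FPKM in the WT libraries alone and so had to be lower in sgNAT10 cells. Of the other 15, 12 fell and 1 rose. The groups did not overlap in 14 of the 18 genes, against 50.8% of all genes tested, a share that includes genes under 1 FPKM. Col5a2, Col5a3 and Col6a3 are among the 14 and could not overlap. The median log2 change of those 15 was -1.07, beside -0.08 over all genes tested.

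The falls were steepest among the fibrillar genes, of which 5 of 6 fell. Among these 5, the direction of Col5a2 and Col5a3 was set by the threshold. Col5a2 had 0.348, 0.423 and 0.376 FPKM in sgNAT10 TC1 cells and 31.3, 38.1 and 34.7 FPKM in WT TC1 cells, a log2 change of -6.53 ± 0.12 (edgeR adjusted p = 1.81e-06), and it held rank 3 by p-value among all genes tested. Col1a2 had 1.08, 1.90 and 1.38 FPKM in sgNAT10 and 84.5, 114 and 92.2 FPKM in WT (log2 change -6.11 ± 0.25, adjusted p = 1.76e-05). In both genes the lowest WT library lay far above the highest sgNAT10 library. Col3a1 had 1.96, 3.43 and 3.14 FPKM in sgNAT10 and 27.6, 33.1 and 21.0 FPKM in WT (log2 change -3.31 ± 0.25, adjusted p = 0.000157). Col5a3 had 0.18, 0.13 and 0.11 FPKM in sgNAT10 and 4.89, 2.58 and 2.50 FPKM in WT (log2 change -4.60 ± 0.37, adjusted p = 0.000187). WT library 1 was the highest for Col5a3 and also held the most Dcn, a fibroblast proteoglycan gene, at 39.5 FPKM beside 5.02 and 3.4 FPKM in the other WT libraries.

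Col5a1 was the fibrillar gene that was not called. It had 21.3, 28.2 and 28.6 FPKM in sgNAT10 TC1 cells and 20.7, 23.4 and 21.5 FPKM in WT TC1 cells (log2 change 0.21 ± 0.11, adjusted p = 0.191), and without sgNAT10 library 1 its log2 change was 0.41 (adjusted p = 0.00436). Set against its partner, Col5a1 stood at 61.3 to 76.0 times the FPKM of Col5a2 in sgNAT10 cells and at 0.614 to 0.661 times in WT cells. Type I collagen was uneven in another way. Col1a1 was low in both genotypes, at 0.629, 1.28 and 0.961 FPKM in sgNAT10 and 2.66, 3.23 and 1.21 FPKM in WT (log2 change -1.34 ± 0.40, adjusted p = 0.0362). In WT TC1 cells Col1a1 thus stood at 0.0132 to 0.0314 times the FPKM of Col1a2, against 0.584 to 0.698 times in sgNAT10 cells. The groups overlapped for Col1a1. In WT its order over the libraries was that of the intestine marker sums (215, 301 and 81.5 FPKM), in sgNAT10 it was not (192, 126 and 107 FPKM), and the part of that tissue was not tested. The Col1a1 call was lost without any single library other than WT library 3.

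**Figure D3:**
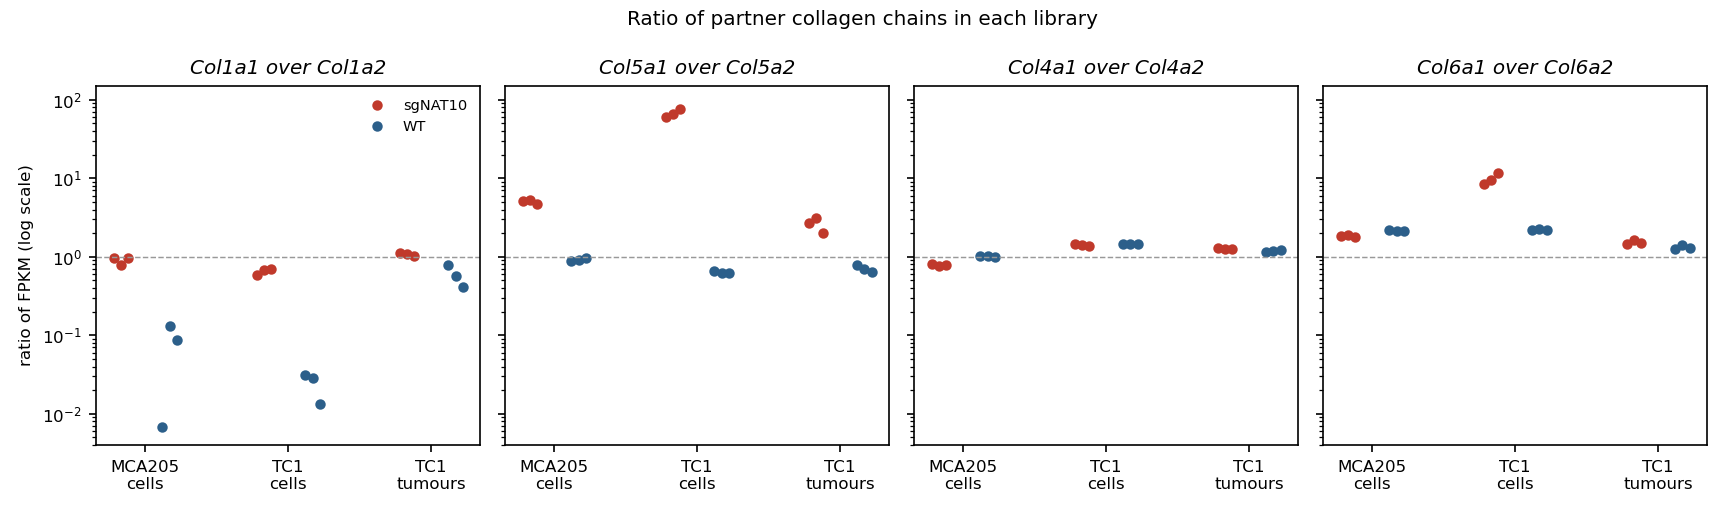
Ratio of the FPKM of partner chains in each library on a log scale, with sgNAT10 left of WT in each pair and a dashed line at 1. Col5a1 over Col5a2 was 61.3 to 76.0 in sgNAT10 and 0.614 to 0.661 in WT TC1 cells, and Col4a1 over Col4a2 was 1.37 to 1.47 in sgNAT10 and 1.44 to 1.46 in WT TC1 cells.

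All 3 type VI genes fell in sgNAT10 TC1 cells, though to different degrees. Col6a3 reached 1 FPKM in the WT libraries alone, so its direction was set by the threshold. Col6a2 (chromosome 10, 76595762 to 76623630, minus strand) had 1.89, 2.17 and 1.88 FPKM in sgNAT10 and 19.5, 22.8 and 21.6 FPKM in WT (log2 change -3.47 ± 0.09, adjusted p = 4.01e-06). Col6a1, which lies 85.2 kb away on the same strand, had 15.9, 20.9 and 22.2 FPKM in sgNAT10 and 42.8, 50.9 and 46.9 FPKM in WT (log2 change -1.30 ± 0.13, adjusted p = 0.00048). Hence Col6a1 stood at 8.41 to 11.8 times the FPKM of Col6a2 in sgNAT10 cells and at 2.17 to 2.24 times in WT cells. Col6a3 had 0.319, 0.268 and 0.229 FPKM in sgNAT10 and 2.51, 2.83 and 1.64 FPKM in WT (log2 change -3.31 ± 0.24, adjusted p = 0.000132). Col6a1 was the chain gene that kept the most of its WT level.

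The type IV pair fell by about the same factor. Col4a1 had 62.7, 61.8 and 59.6 FPKM in sgNAT10 TC1 cells and 114, 133 and 127 FPKM in WT TC1 cells (log2 change -1.07 ± 0.08, adjusted p = 0.000137). Col4a2 had 42.5, 43.8 and 43.6 FPKM in sgNAT10 and 78.5, 91.3 and 88.7 FPKM in WT (log2 change -1.04 ± 0.08, adjusted p = 0.000134). Their ratio was 1.37 to 1.47 in sgNAT10 and 1.44 to 1.46 in WT, and the groups overlapped. They were the most abundant collagen transcripts of sgNAT10 TC1 cells. Col4a5 fell by 0.51 on the log2 scale (SE 0.14, adjusted p = 0.0278), and by 0.26 without sgNAT10 library 1 (adjusted p = 0.0141). The call was lost without any other single library, at adjusted p from 0.0557 to 0.136, and under 10 alternatives in all. That library had the lowest Col4a5, Col6a1, Col8a1 and Col16a1 values of its group.

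Among the remaining TC1 genes, Col12a1, a fibril-associated collagen of tendon and ligament, fell, with 0.516, 0.996 and 1.11 FPKM in sgNAT10 cells and 5.77, 2.83 and 2.68 FPKM in WT cells (log2 change -2.16 ± 0.40, adjusted p = 0.00558). Col16a1 fell too, with 8.06, 13.8 and 14.1 FPKM in sgNAT10 and 23.2, 27.0 and 26.5 FPKM in WT (log2 change -1.18 ± 0.24, adjusted p = 0.00777). Col7a1 was the gene that rose, with 3.07, 6.08 and 5.03 FPKM in sgNAT10 and 2.45, 2.30 and 1.30 FPKM in WT (log2 change 0.72 ± 0.20, adjusted p = 0.0297). The coding Col7a1 model had 1.554, 2.124 and 2.301 FPKM in sgNAT10 and 1.501, 1.168 and 1.033 FPKM in WT. A 695-base Col7a1 model annotated as keeping an intron had 1.302, 3.502 and 2.261 FPKM in sgNAT10 and 0.798, 0.925 and 0.196 FPKM in WT. These models were not tested separately. The Col7a1 call was lost without WT library 2 or 3 or without sgNAT10 library 2 or 3, at log2 changes of 0.68 to 0.75. It was also lost with the replicate block (edgeR adjusted p = 0.0901). Col9a3 had 0.813, 3.35 and 2.02 FPKM in sgNAT10 and 0.660, 1.01 and 0.357 FPKM in WT and missed the threshold (log2 change 1.41 ± 0.47, adjusted p = 0.0529), while DESeq2 called it at 1.5. The coding Col9a3 model lay between 0.147 and 0.674 FPKM in these libraries, and the rest came from models annotated as keeping an intron. Col8a1 and Col18a1 were called lower at log2 changes of -0.49 and -0.37 (adjusted p = 0.0403 and 0.0463), calls that were lost under 12 and 14 of the alternatives. Without WT library 1 or sgNAT10 library 1, the log2 change of Col8a1 was -0.29 or -0.27, and without WT library 2 or sgNAT10 library 1, that of Col18a1 was -0.24 or -0.19.

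Part of the fibroblast and mesenchymal markers fell along with the collagens in TC1 cells. Of all genes tested there 37.9% were called, 22.0% lower and 15.9% higher. The sum of 10 fibroblast markers was 42.1, 49.4 and 48.7 FPKM in sgNAT10 and 270, 182 and 203 FPKM in WT, with 1 marker higher and 4 lower, and 4 of 6 mesenchymal markers fell. Of these fibroblast markers Pdgfra, a growth factor receptor gene, had 3.88, 6.46 and 6.51 FPKM in sgNAT10 and 19.2, 17.1 and 17.6 FPKM in WT, while Fap stayed at or under 0.242 FPKM and Lum at or under 0.279 FPKM. Sums of 3 other lists also did not overlap in TC1 cells, among them that of the lung epithelial markers, at 7.19 to 7.57 FPKM in sgNAT10 and 6.0 to 6.39 FPKM in WT, nearly all of it Abca3. That of 9 leukocyte and macrophage markers was 73.6 to 138 FPKM in sgNAT10 and 43.3 to 50.7 FPKM in WT, with 3 higher and 0 lower, and that of 8 endothelial markers was 17.1 to 18.8 FPKM in sgNAT10 and 11.4 to 14.4 FPKM in WT, with 1 higher and 0 lower. In MCA205 cells the fibroblast sum was higher with sgNAT10, at 660, 681 and 681 FPKM against 448, 423 and 398 FPKM in WT, with 3 of 9 tested markers higher and 1 lower. The median log2 change of the 9 tested markers was -0.89, so the typical marker did not follow the sum. Of all genes tested in MCA205 cells 40.6% were called, and the fibrillar collagen sum was lower with sgNAT10 there. The part of these markers in the collagen values was not tested.

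**Figure D4:**
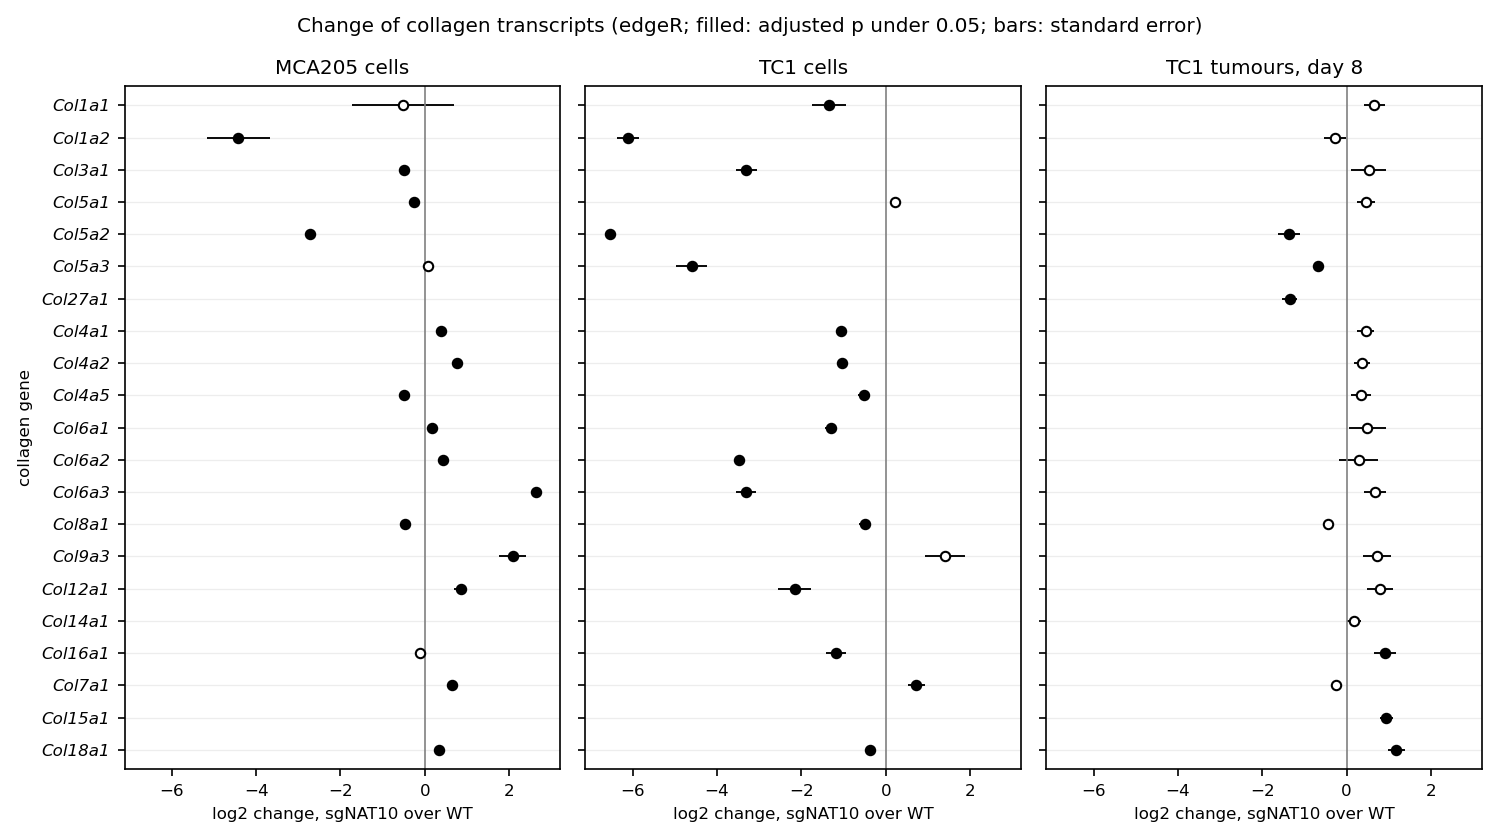
Log2 change (sgNAT10 over WT) of each collagen gene that reached 1 FPKM in 3 libraries of a table, with its standard error, filled where the edgeR adjusted p was under 0.05. In TC1 cells 15 of 18 genes lay lower and were called, with Col5a2 at -6.53 and Col1a2 at -6.11, and Col7a1 was called higher at 0.72. Of those 15, Col5a2, Col5a3 and Col6a3 reached 1 FPKM in the WT libraries alone.

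In the tumours most collagen genes were not called, and the called ones split evenly. All 21 genes reached 1 FPKM in 3 libraries, with libraries of both genotypes at or above it. By edgeR 3 rose (Col15a1, Col16a1 and Col18a1), 3 fell (Col5a2, Col5a3 and Col27a1) and 15 were not called, where 17.4% of all 19244 genes tested were called, 7.65% higher and 9.72% lower. Among genes with at least 1 FPKM in 3 libraries 20.7% were called, 7.89% higher and 12.8% lower. The groups did not overlap in 9 of the 21, against 40.4% of all genes tested. The median log2 change of the 21 was 0.45, beside 0.02 over all genes tested. In bulk tumours fewer cells of a type and less RNA per cell cannot be told apart, and tumour cell and host transcripts are counted together.

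The fibrillar genes that fell were the type V chain genes Col5a2 and Col5a3 and the type XXVII gene. Col27a1 (chromosome 4, 63214004 to 63334991, plus strand), a fibrillar collagen of growing cartilage, had 2.76, 3.70 and 3.54 FPKM in sgNAT10 tumours and 6.22, 6.79 and 10.5 FPKM in WT tumours, a log2 change of -1.35 ± 0.18 (edgeR adjusted p = 0.00639). Col5a2 had 18.5, 13.2 and 16.4 FPKM in sgNAT10 and 26.6, 32.2 and 58.5 FPKM in WT (log2 change -1.37 ± 0.26, adjusted p = 0.0163). Col5a3 had 22.6, 19.4 and 17.1 FPKM in sgNAT10 and 26.2, 29.1 and 31.0 FPKM in WT (log2 change -0.67 ± 0.12, adjusted p = 0.014). None of the 3 overlapped between genotypes. Their partner Col5a1 pointed the other way without being called, with 49.6, 41.4 and 33.1 FPKM in sgNAT10 and 20.7, 22.7 and 37.2 FPKM in WT (log2 change 0.46 ± 0.22, adjusted p = 0.187). Col5a1 stood at 2.02 to 3.14 times the FPKM of Col5a2 in sgNAT10 tumours and at 0.637 to 0.778 times in WT tumours. The Col5a2 call was lost without any single sgNAT10 library, at log2 changes of -1.48 to -1.24, and the Col5a3 call without sgNAT10 library 2 or 3.

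The most abundant collagen transcripts of the tumours were not called. Col3a1 had 594, 493 and 436 FPKM in sgNAT10 tumours and 168, 236 and 610 FPKM in WT tumours (log2 change 0.52 ± 0.41, adjusted p = 0.399). WT tumour 3 held the highest value of all 6, and without it the log2 change was 1.17 (adjusted p = 0.0108). Col1a1 had 95.9, 57.6 and 73.3 FPKM in sgNAT10 and 50.4, 35.0 and 46.1 FPKM in WT (log2 change 0.66 ± 0.25, adjusted p = 0.109), with no overlap, and DESeq2 called it at 0.65. Col1a2 overlapped, with 85.8, 52.9 and 71.2 FPKM in sgNAT10 and 65.1, 62.4 and 111 FPKM in WT (log2 change -0.28 ± 0.26, adjusted p = 0.467). The ratio of Col1a1 to Col1a2 was 1.03 to 1.12 in sgNAT10 and 0.414 to 0.775 in WT. The type IV and type VI genes overlapped between genotypes, at log2 changes of 0.45 for Col4a1, 0.36 for Col4a2, 0.34 for Col4a5, 0.49 for Col6a1, 0.29 for Col6a2 and 0.68 for Col6a3. Col6a2 was the most variable of them, with 162, 91.1 and 65.1 FPKM in sgNAT10 and 43.2, 61.0 and 145 FPKM in WT.

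The genes that rose in the tumours were both multiplexins and 1 fibril-associated gene. Col18a1 (chromosome 10, 77052178 to 77166548, minus strand), a heparan sulphate proteoglycan of vascular and epithelial basement membrane, had 19.6, 19.2 and 16.0 FPKM in sgNAT10 tumours and 4.82, 9.04 and 10.4 FPKM in WT tumours, a log2 change of 1.18 ± 0.20 (edgeR adjusted p = 0.0126). Col15a1 (chromosome 4, 47208161 to 47313167, plus strand), the related gene of basement membranes around vessels and muscle fibres, had 14.2, 12 and 10.5 FPKM in sgNAT10 and 5.12, 5.31 and 7.24 FPKM in WT (log2 change 0.94 ± 0.15, adjusted p = 0.00968). Col16a1 (chromosome 4, 130047840 to 130099283, plus strand) had 61.0, 63.0 and 50.2 FPKM in sgNAT10 and 21.1, 24.3 and 42.6 FPKM in WT (log2 change 0.91 ± 0.25, adjusted p = 0.0443). In each of them every sgNAT10 tumour lay above every WT tumour. The Col16a1 call was lost without any single library other than WT tumour 3, at log2 changes of 0.75 to 1.03. The Col18a1 call was lost without WT tumour 2 or sgNAT10 tumour 1 or 2, and the Col15a1 call without sgNAT10 tumour 2 (adjusted p = 0.0504).

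Markers of vessels, muscle and some other host tissue moved with these genes. Of all genes tested in the tumours 17.4% were called, 7.65% higher and 9.72% lower. All 8 endothelial markers rose, and their sum was 99.5, 90.7 and 89.3 FPKM in sgNAT10 tumours and 47.3, 46.9 and 59.7 FPKM in WT tumours. Of 8 skeletal muscle markers 5 rose, and their sum was 157, 114 and 105 FPKM in sgNAT10 and 33.4, 24.2 and 27.3 FPKM in WT. Of 10 fibroblast markers 3 rose and 1 fell, and their sum was 756, 754 and 783 FPKM in sgNAT10 and 473, 480 and 604 FPKM in WT. The sum of 9 pericyte and smooth muscle markers overlapped, at 72.1, 73.8 and 56.9 FPKM in sgNAT10 and 81.0, 92.8 and 69.3 FPKM in WT, with 2 higher and 1 lower. The sum of 9 leukocyte and macrophage markers overlapped as well, at 989 to 1150 FPKM in sgNAT10 and 1110 to 1490 FPKM in WT, with 0 higher and 2 lower. The adipocyte sum was 68.3, 54.8 and 78.4 FPKM in sgNAT10 and 39.2, 21.7 and 24.8 FPKM in WT. The part of these tissues in the collagen values was not tested.

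The deposited transcripts of Col16a1 and Col18a1 gave a closer view. The Col16a1 model annotated as subject to nonsense-mediated decay (5138 bases) had 28.4, 29.1 and 18.1 FPKM in sgNAT10 tumours and 2.14, 5.75 and 2.44 FPKM in WT tumours. The longest coding model (5206 bases) overlapped, with 18.4, 18.2 and 2.27 FPKM in sgNAT10 and 7.28, 11.0 and 26.4 FPKM in WT. Libraries of a group split these models very differently, and in sgNAT10 MCA205 cells the 5138-base model alone took between 6.32% and 63.2% of the Col16a1 FPKM, so the assignment between near-identical models is uncertain. For Col18a1 the main coding model (5063 bases) took 73.4% to 77.9% of the FPKM in sgNAT10 tumours and 80.8% to 88.2% in WT tumours. A 5595-base coding model had 1.90, 1.84 and 1.83 FPKM in sgNAT10 and 0.056, 0.055 and 0.302 FPKM in WT. These shares were not tested.

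**Figure D5:**
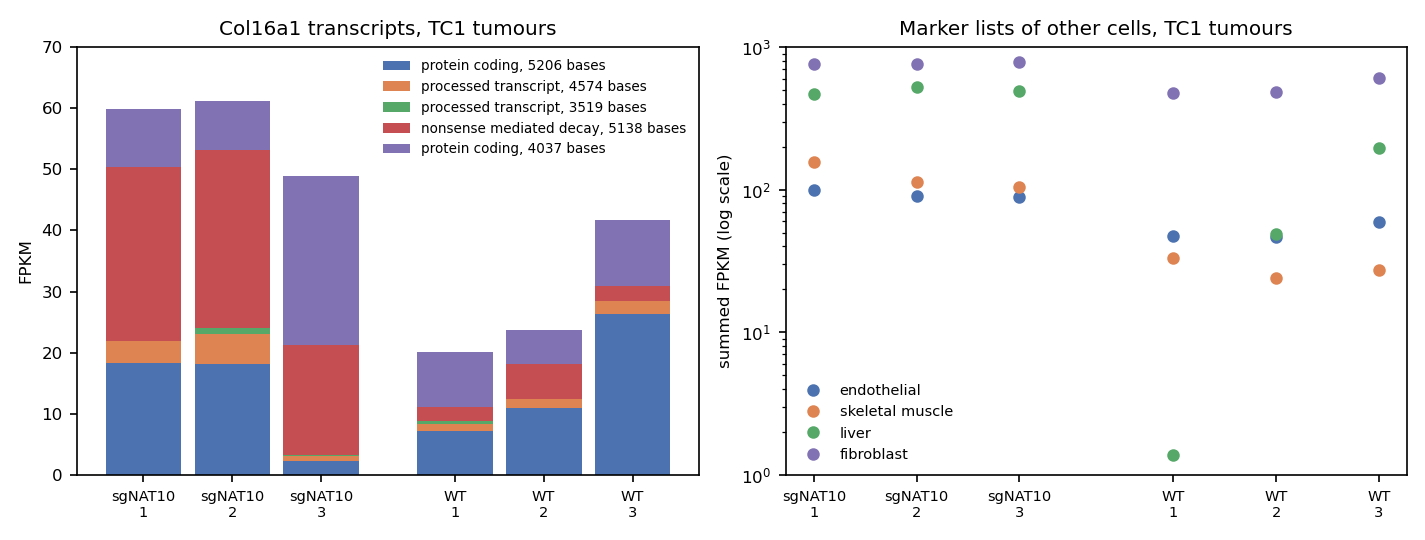
Left, FPKM of each deposited Col16a1 transcript model stacked per tumour library; right, summed FPKM of marker lists on a log scale in the same libraries, with sgNAT10 left of WT. Endothelial sums were 89.3 to 99.5 FPKM in sgNAT10 and 46.9 to 59.7 FPKM in WT tumours, and the 5138-base model had 18.1 to 29.1 FPKM in sgNAT10 and 2.14 to 5.75 FPKM in WT tumours.

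The remaining tumour genes were not called. Col7a1 had 9.59, 10.4 and 9.84 FPKM in sgNAT10 tumours and 12.3, 11.4 and 11.9 FPKM in WT tumours, without overlap (log2 change -0.26 ± 0.11, adjusted p = 0.128). Col8a1 stood at 15.9 ± 1.33 FPKM in sgNAT10 and 20.1 ± 3.87 FPKM in WT (SD, n = 3 each; edgeR adjusted p = 0.06), and DESeq2 called it lower at -0.45. Col12a1 and Col9a3 had log2 changes of 0.80 and 0.71 (adjusted p = 0.115 and 0.168). Col14a1, a fibril-associated collagen of skin and tendon that was under 1 FPKM in every cell line library, had 3.33, 2.67 and 2.37 FPKM in sgNAT10 tumours and 1.94, 2.42 and 2.30 FPKM in WT tumours (adjusted p = 0.475). Col15a1 and Col27a1 likewise stayed under the threshold in both cell lines. Of these, Col27a1 was also called lower in TC1 cells, with 0.111, 0.284 and 0.0915 FPKM in sgNAT10 and 0.702, 1.06 and 0.390 FPKM in WT (adjusted p = 0.00894).

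The effect of sgNAT10 on collagen genes was then compared between settings by interaction contrasts over 12 libraries, each effect taken within its own table. MCA205 cells and TC1 cells differed for 12 of the 18 collagen genes that reached 1 FPKM in 3 libraries of either table, where 35.3% of 20504 genes tested differed. No such share was taken for genes with at least 1 FPKM. In TC1 cells Col5a2, Col5a3 and Col6a3 reached 1 FPKM in WT libraries alone, and in MCA205 cells Col9a3 and Col12a1 in sgNAT10 libraries alone. The threshold set the direction of that effect in that table. In the other table each of these genes reached 1 FPKM in libraries of both genotypes. The widest gap was that of Col6a3, with a log2 change of 2.63 in MCA205 cells and -3.31 in TC1 cells, a difference of 5.88 ± 0.27 (SE, edgeR adjusted p = 1.32e-07). The signs were opposite, with both changes called, for Col4a1, Col4a2, Col6a1, Col6a2, Col6a3, Col12a1 and Col18a1. Of these, the MCA205 calls of Col4a1, Col6a1, Col6a2, Col12a1 and Col18a1 were lost with dispersion over all 18 libraries. The Col18a1 call was lost in 8 alternatives in MCA205 cells and in 14 in TC1 cells, so its opposite signs rest on weak calls. Col5a2 fell in both lines, by 2.72 and by 6.53 on the log2 scale, and the difference of 3.76 ± 0.14 was called (adjusted p = 3.17e-08). For Col1a2, at -4.42 and -6.11, the difference of 1.67 ± 0.87 was not called (adjusted p = 0.169). Differences were not called for Col4a5, Col7a1 and Col8a1 either, at -0.04 ± 0.17, -0.13 ± 0.21 and -0.04 ± 0.19.

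Tumours and TC1 cells differed for 14 of the 21 collagen genes, where 26.1% of 21112 genes tested differed. These contrasts set an effect in tumour tissue, host cells included, against an effect in culture. The share was not taken for genes with at least 1 FPKM. In TC1 cells Col5a2, Col5a3 and Col6a3 reached 1 FPKM in WT libraries alone, so the threshold set the direction of their effect there. The difference was 5.81 ± 0.39 for Col1a2 (adjusted p = 4.56e-06), with log2 changes of -0.28 in tumours and -6.11 in cells. It was 5.14 ± 0.34 for Col5a2 (adjusted p = 4.32e-06), which fell in both settings, though in cells the threshold set that direction. Col7a1 had the opposite sign of difference, -1.0 ± 0.22 (adjusted p = 0.0071), with -0.26 in tumours and 0.72 in cells. Col18a1 and Col16a1 were called higher in tumours and lower in cells, with differences of 1.53 ± 0.27 and 2.07 ± 0.39 (adjusted p = 0.00174 and 0.00274). Their tumour calls were lost in 4 and 8 alternatives, and the Col18a1 call in cells in 14. Differences for Col27a1, Col5a1 and Col8a1 were 0.68 ± 0.44, 0.23 ± 0.29 and 0.03 ± 0.23 and were not called.

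Genes that modify, export, trim, crosslink or bind collagen were read from 5 lists with 48 genes. In MCA205 cells 12 rose and 12 fell of 42 tested, where 40.6% of all genes tested were called and 51.6% of those with at least 1 FPKM in 3 libraries. Plod3, a lysyl hydroxylase and glycosyltransferase gene, had 98, 96.7 and 96.8 FPKM in sgNAT10 MCA205 cells and 62.1, 58.7 and 61.8 FPKM in WT MCA205 cells (log2 change 0.69 ± 0.04, adjusted p = 2.53e-05). The collagen receptor kinase gene Ddr1 rose (0.59 ± 0.04), while Loxl4, a lysyl oxidase relative, fell (-0.47 ± 0.04). The coat protein genes Sec23a and Sec24d, which serve the export of procollagen from the endoplasmic reticulum, fell with log2 changes of -0.40 and -0.53. No crosslinking gene rose and 2 of 5 fell.

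In TC1 cells 5 of these genes rose and 14 fell of 43 tested, where 37.9% of all genes tested were called and 47.0% of those with at least 1 FPKM in 3 libraries. Plod3 fell here, with 32.9, 34.4 and 34.0 FPKM in sgNAT10 TC1 cells and 58.8, 54.3 and 56.5 FPKM in WT TC1 cells (log2 change -0.78 ± 0.05, adjusted p = 8.92e-05). Plod1, the lysyl hydroxylase gene, had 10.3, 11.8 and 12.2 FPKM in sgNAT10 and 40.8, 40.1 and 35.4 FPKM in WT (log2 change -1.82 ± 0.08, adjusted p = 2.55e-05). Adamts14, which encodes a procollagen N-proteinase, had 3.38, 3.37 and 3.28 FPKM in sgNAT10 and 13.0, 17.2 and 16.4 FPKM in WT (log2 change -2.26 ± 0.12, adjusted p = 3.77e-05). Ddr2, the receptor kinase gene for fibrillar collagen, had 16.5, 15.7 and 17.3 FPKM in sgNAT10 and 35.8, 37.5 and 37.2 FPKM in WT (log2 change -1.22 ± 0.05, adjusted p = 2.28e-05). Tango6 fell by 1.02 on the log2 scale. Of 9 receptor and uptake genes tested 4 fell and none rose.

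In the tumours 4 of 45 tested genes rose and 2 fell, where 17.4% of all genes tested were called. Loxl3, another lysyl oxidase relative, had 57.4, 60.5 and 49.2 FPKM in sgNAT10 tumours and 16.4, 24.7 and 28.2 FPKM in WT tumours (log2 change 1.13 ± 0.15, adjusted p = 0.00642). P3h2, a prolyl hydroxylase gene of basement membrane collagen, and Itga1, an integrin subunit gene for collagen binding, rose with log2 changes of 0.81 and 0.79 (adjusted p = 0.0202 and 0.024). Ddr1 and Pcolce2, an enhancer of procollagen processing, fell with log2 changes of -0.52 and -0.93 (adjusted p = 0.0341 and 0.0409). Of these 5 calls, that of Loxl3 held without any single library, and the other 4 were lost without 1 or another library.

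The 21 collagen genes present in all tables but below the threshold had a highest library value between 0.0222 FPKM (Col6a6) and 3.96 FPKM (Col17a1). The gene just inside the threshold had at least 3 libraries at or above 1.12 FPKM in MCA205 cells (Col12a1), 1.01 FPKM in TC1 cells (Col9a3) and 1.63 FPKM in tumours (Col9a3), and for the one just outside that level was 0.743 (Col22a1), 0.852 (Col11a1) and 0.801 FPKM (Col6a4). Some of these low genes were called. Col22a1, a collagen of tissue junctions, had 0.753, 0.743 and 0.778 FPKM in sgNAT10 MCA205 cells and 0.0424, 0.0368 and 0.0430 FPKM in WT MCA205 cells (log2 change 4.11 ± 0.19, adjusted p = 1.22e-05). Col11a1, a minor fibrillar chain gene, fell in MCA205 cells, with 0.00405, 0.0159 and 0.028 FPKM in sgNAT10 and 0.498, 0.785 and 0.631 FPKM in WT (adjusted p = 0.00041). It also fell in TC1 cells and in the tumours, with log2 changes of -0.99 and -3.15 (adjusted p = 0.00819 and 0.0365). Col17a1, a transmembrane collagen of skin, reached 3.96 FPKM in sgNAT10 tumour 3, against 0.950 and 0.207 FPKM in the other sgNAT10 tumours and at most 0.161 FPKM in WT tumours, and that tumour also held the highest sum of 6 epidermis markers, 185 FPKM beside 1.47 to 19.3 FPKM in the other 5 tumours. Over all collagen names, 13 rose and 7 fell of 32 tested in MCA205 cells, 2 rose and 21 fell of 33 in TC1 cells, and 7 rose and 5 fell of 38 in tumours. Of all genes tested 40.6%, 37.9% and 17.4% were called in these tables in the same order.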

How the data were processed

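RNA-seq libraries of sgNAT10 and WT MCA205 cells, TC1 cells and TC1 tumours (3 of each) were read from 3 deposited tables of 87073 to 89209 transcripts. The tables hold estimated counts (whole as deposited, not normalised) and FPKM values, both computed by the authors per the file headers. Per the submitters' processing notes the build was mm10, and featureCounts, Bowtie2, Trim Galore and FastQC were among the tools, while the program that made these values, its strand setting and its handling of shared reads are not given in the sources used here. The extract protocol starts from 0.6 µg of RNA.

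Transcripts were summed per gene identifier. Of the gene identifiers 99.7% were in GENCODE M21, from which coordinates were taken. Counts were tested per table with edgeR 4.0.16 (R 4.3.3): TMM factors, filterByExpr, quasi-likelihood fit and test, and Benjamini-Hochberg adjustment over all genes tested, with a threshold of 0.05. Effects were compared between tables by an interaction term over 12 libraries. Means, SDs, ranges and ratios come from FPKM. The steps were tested on simulated counts. Alternatives were RLE factors, library size alone, other filters, DESeq2 1.42.0, limma 3.58.1 on log2(FPKM + 1) and log2(FPKM + 0.1), dispersion over all 18 libraries, a replicate block, each library left out, and 1 pair of MCA205 libraries left out, which was added after the data were seen. No 2 libraries of the same group were duplicates. Python 3.11.15 with pandas 2.3.3, numpy 2.4.6 and matplotlib 3.10.9 made the summaries and plots.

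The collagen genes, the gene lists and the markers were chosen with earlier results of these data known. By the rule for named genes, values per library were given, in each table, for up to 10 called collagen genes with the lowest p and a higher group mean of at least 1 FPKM, for their partner chains and, outside the family, for Nat10 and up to 5 genes of the 5 lists with the lowest p. Col22a1, Col17a1 and the marker genes Pdgfra, Dcn, Fap, Lum, Vim and Abca3 were named after their values were seen.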

Additional observations from a re-analysis of the deposited data

Results flagged for a closer look

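The effect of sgNAT10 on a collagen gene differed between settings by the interaction term (edgeR, adjusted p under 0.05) in 26 cases, given here as differences of log2 change.

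Between MCA205 cells and TC1 cells the difference was positive for 11 genes and negative for 1. Of 20504 genes tested 18.9% were called with a positive difference and 16.4% with a negative one. The threshold set the direction of the TC1 cell effect of Col5a2, Col5a3 and Col6a3, and of the MCA205 effect of Col12a1. Among fibrillar genes the difference was 3.76 for Col5a2, 4.62 for Col5a3, 2.75 for Col3a1 and -0.52 for Col5a1. Among the type VI genes it was 5.88 for Col6a3, 3.83 for Col6a2 and 1.43 for Col6a1. The type IV genes gave 1.74 for Col4a2 and 1.41 for Col4a1. Col12a1 gave 2.95, Col16a1 1.0 and Col18a1 0.65.

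Between TC1 tumours and TC1 cells the difference was positive for 13 genes and negative for 1. Of 21112 genes tested 13.1% were called with a positive difference and 13.0% with a negative one. The threshold again set the direction of the TC1 cell effect of Col5a2, Col5a3 and Col6a3. Among fibrillar genes the difference was 5.81 for Col1a2, 5.14 for Col5a2, 3.92 for Col5a3, 3.79 for Col3a1 and 1.97 for Col1a1. The type VI genes gave 3.96 for Col6a3, 3.73 for Col6a2 and 1.76 for Col6a1, and the Col6a1 call (adjusted p = 0.0336) was lost in 10 alternatives, 9 of them without a library. The type IV genes gave 1.51 for Col4a1 and 1.38 for Col4a2. Col12a1 gave 2.94, Col16a1 2.07, Col18a1 1.53 and Col7a1 -1.0. Both contrasts use the same TC1 cell libraries, so the 2 sets of values are not independent.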

How the results depend on the processing

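Of 78 called values of named genes, 29 were lost in at least 1 alternative. Without sgNAT10 library 2 or WT library 2 of MCA205 cells the Col1a1 log2 change turned to 0.01 or 0.22 (range without a library -1.05 to 0.22, not called). Without sgNAT10 tumour 1 that of Col6a2 turned to -0.15 (range -0.15 to 0.87, not called).

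In the tumours, against 3 collagen genes higher, DESeq2 called 6, dispersion over all 18 libraries 7 and a threshold of 0.1 FPKM 6, with 0 to 6 without a library (6 without WT tumour 3, 0 without sgNAT10 tumour 2). Against 3 lower, 0.1 FPKM gave 5, and leaving out a library 1 to 4. Of the machinery genes 4 were higher, against 2 with limma at either pseudocount, 9 with dispersion over all 18 libraries and 1 to 9 without a library. Of these genes 2 were lower, against 0 with library size alone, 0 without a filter, 0 with limma, 5 with dispersion over all 18 libraries and 0 to 5 without a library. In TC1 cells 1 collagen gene was higher, against 2 with RLE factors, a 1 CPM filter, DESeq2, dispersion over all 18 libraries or 0.1 FPKM, 0 at 5 FPKM, and 0 to 3 without a library. Machinery genes higher there numbered 5, and 4 to 8 without a library. In MCA205 cells dispersion over all 18 libraries gave 4 collagen genes higher and 3 lower, and 5 machinery genes higher and 7 lower, against 9, 6, 12 and 12. The collagen calls lost were those of Col3a1, Col4a1, Col4a5, Col5a1, Col6a1, Col6a2, Col12a1 and Col18a1, at edgeR adjusted p from 0.0755 to 0.747. The cause of these moves was not tested. Library size alone shifted the median log2 change of all genes in the tumours to 0.13, against 0.02.

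Correlations of same-numbered deviations were -0.51, -0.56 and 0.27 in MCA205 cells, where differently numbered pairs ran from -0.52 to 0.67. Same-numbered values were -0.07, -0.01 and 0.01 in TC1 cells and -0.03, 0.01 and -0.07 in tumours. They showed no pairing by number, though so few libraries cannot exclude it. With the replicate block, collagen genes higher and lower numbered 8 and 6 in MCA205 cells, 0 and 12 in TC1 cells, and 1 and 2 in tumours, with machinery genes at 1 higher and 0 lower in tumours. With 3 libraries a group, small changes near the threshold were not resolved.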
